A study of Mus musculus with 2 samples.

Results

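Genes of innate immune sensing were followed across the hippocampal cell types of old mice that had been exposed to Gulf War chemicals or to vehicle. They are C1qa, C1qb and C1qc, which encode the 3 chains of complement C1q, the receptor gene Trem2, and the adaptor genes Fcer1g and Tyrobp. The 6 genes were named by hand, with their values in microglia among the results the list was chosen by, so those values are given as a description with no test. Of the 6 genes, 5 were listed in the microglia table, which held 2534 of the 10596 genes listed in any of the 9 cell type tables. None of the 6 was listed in another table, and Tyrobp was listed in none of the 9.

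The data are nuclear RNA of the hippocampus of male C57BL/6J mice, read by droplet-based 3′ sequencing. At 10 weeks of age the GWI group, a model of Gulf War Illness, received intraperitoneal pyridostigmine bromide at 0.7 mg/kg, a cholinesterase inhibitor, with permethrin at 200 mg/kg, a pyrethroid insecticide, daily for 10 days, and the control group received vehicle on the same schedule. Both groups were kept until 19 months of age, when hippocampi of 3 animals were combined for each library, so that the differences between the mice of a group cannot be seen. The genotype label is C57/BL6 for the control and C57/BL7 for the exposed mice, and which is right cannot be checked here. All log2 fold changes (GWI library over control library) and all shares of nuclei with a gene detected come from the authors' deposited tables, one per cell type, and with 1 library per group no difference has a replicate check. The tables number the groups without naming them, and the first was read as GWI from the order in the comparison label, GWI_PBS_vs_Ctrl_PBS. That label carries PBS for both groups, and what PBS refers to cannot be checked here. Listing required detection in 10% or more of the nuclei in either library and an absolute log2 fold change of 0.05 or more. The sources used here state neither how many nuclei each table covers nor the molecules per nucleus, so values carry no interval.

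C1q is the recognition molecule of the classical complement pathway, built from the products of C1qa, C1qb and C1qc together, and in the brain microglia are its main source. It tags debris and synapses for removal by phagocytes. TREM2 is a lipid-sensing receptor of microglia that has no signalling tail of its own and signals through TYROBP (DAP12), whereas FCER1G is the common gamma chain of Fc receptors. Both adaptors carry an immunoreceptor tyrosine-based activation motif (ITAM), which recruits the kinase SYK once SRC-family kinases have phosphorylated it.

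The nuclei labelled microglia carried microglial markers in the authors' deposited table. Of 17 markers 14 were listed, including P2ry12 in 79.7% of GWI and 66.7% of control nuclei and Cx3cr1 in 72.3% and 65.8%. Aif1, Csf1r and Selplg were not listed. Of 11 markers of border macrophages, which also make C1q, Maf and Stab1 were listed and Mrc1, Cd163, Lyve1 and Pf4 were not, and none of 10 monocyte and neutrophil or 14 lymphocyte markers was listed. Neuronal transcripts were present in part of these nuclei, with Grin2b in 34.7% of GWI and 36.6% of control nuclei and Camk2a in 26.3% and 28.2%.

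Among the C1q chains in microglia, C1qa and C1qc differed most between the libraries and C1qb least. C1qa, the A chain gene, was detected in 39.1% of control and 58.7% of GWI nuclei in the authors' deposited table. C1qc, the C chain gene, was detected in 42.5% of control and 61.6% of GWI nuclei. C1qb, the B chain gene, was detected in 31.6% of control and 37.8% of GWI nuclei. The GWI library was therefore the higher one for each chain, by 19.6, 19.1 and 6.2 percentage points for C1qa, C1qc and C1qb. No gene of the microglia table had a larger gain in detection in the GWI library than C1qa, and C1qc came next, while C1qb ranked 123 of 2534. The deposited log2 fold changes were 0.84 for C1qc (1.78-fold), 0.75 for C1qa (1.68-fold) and 0.32 for C1qb (1.24-fold). C1qc and C1qa ranked 10 and 15 by log2 fold change and C1qb ranked 262. The share of nuclei with C1qa exceeded that with C1qb by 7.5 points in the control library and by 20.9 points in the GWI library. Between C1qc and C1qa the gap was 3.4 points in the control and 2.9 points in the GWI library, so the widening was between C1qb and the other chains.

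**Figure D1:**
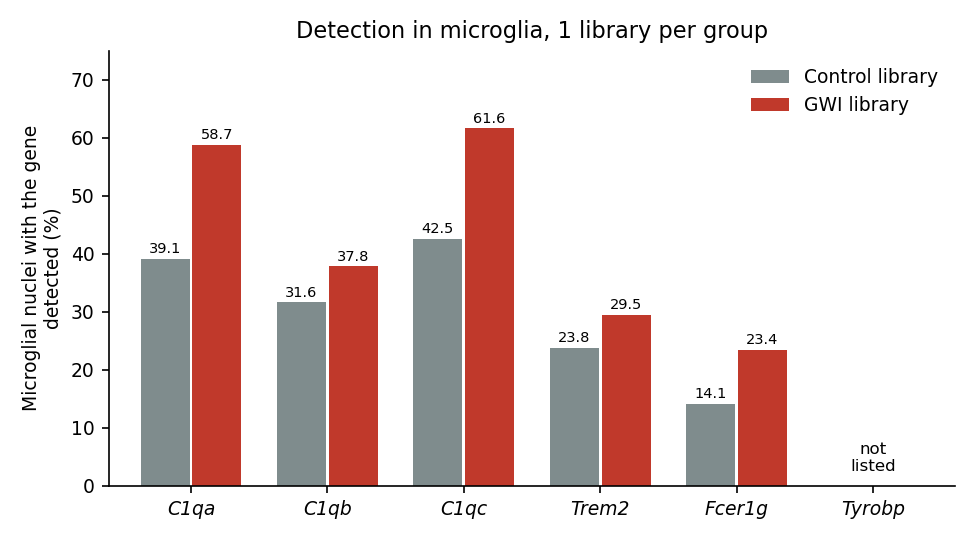
Share of microglial nuclei in which each gene was detected (%, vertical axis), in the control library (grey) and the GWI library (red), 1 library of 3 pooled mice each, so there are no error bars. The GWI bar is the taller one for all 5 listed genes, from 31.6% to 37.8% for C1qb up to 39.1% to 58.7% for C1qa, and Tyrobp was not listed.

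The 3 chain genes lie next to one another on chromosome 4. In the GENCODE M21 annotation of GRCm38 all 3 are protein-coding genes on the minus strand, C1qa from 136895917 to 136898803, C1qc from 136889804 to 136893065 and C1qb from 136880129 to 136886187. No other gene is annotated within the 18.7 kb from C1qb to C1qa, with 3616 bases between C1qb and C1qc and 2851 between C1qc and C1qa. The smaller difference therefore belonged to the gene at the far end of the cluster in the direction of transcription, which is also the longest of the 3 at 6.06 kb against 2.89 kb for C1qa and 3.26 kb for C1qc.

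**Figure D2:**
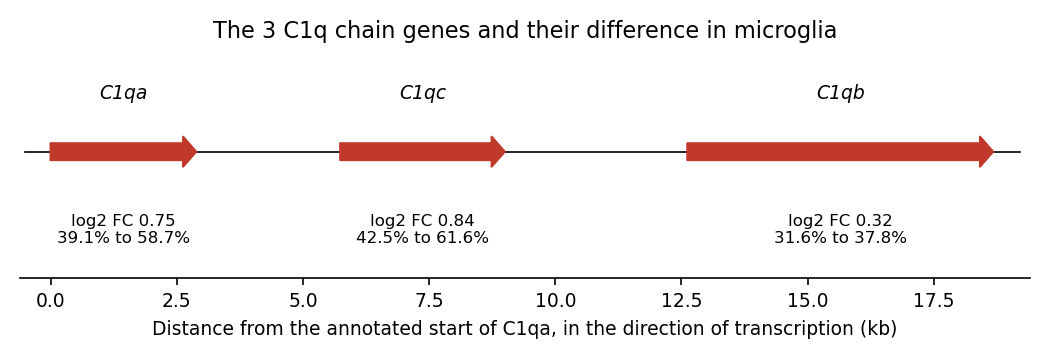
Map of the C1q cluster to scale, with distance from the annotated start of C1qa in kb and arrows in the direction of transcription. Below each gene stand its log2 fold change in microglia and its share of nuclei in the control and then the GWI library, which run from 0.75 for C1qa and 0.84 for C1qc to 0.32 for C1qb.

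Of the receptor and its adaptors, Fcer1g differed more between the libraries than Trem2. Trem2 was detected in 23.8% of control and 29.5% of GWI microglial nuclei in the authors' deposited table, with a log2 fold change of 0.23 (1.18-fold). Fcer1g was detected in 14.1% of control and 23.4% of GWI nuclei, with a log2 fold change of 0.80 (1.75-fold). Both were higher in the GWI library, by 5.7 and 9.3 points. By log2 fold change Fcer1g ranked 11 and Trem2 ranked 428 of 2534 genes. Tyrobp, the adaptor through which TREM2 signals, was not listed in microglia or elsewhere, which under the listing rule means detection under 10% in both libraries or an absolute log2 fold change under 0.05, and these cannot be told apart here. All 3 are protein-coding. Trem2 (plus strand) spans 48346401 to 48354147 of chromosome 17, Fcer1g (minus strand) 171229572 to 171234365 of chromosome 1, and Tyrobp (plus strand) 30413760 to 30417585 of chromosome 7. No other annotated gene overlaps any of the 6 genes.

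Ordered by log2 fold change, the 5 listed genes fell into an upper group of C1qc, Fcer1g and C1qa and a lower group of C1qb and Trem2. Neighbours within the upper group were 0.03 and 0.06 apart and those of the lower group 0.08, while C1qa and C1qb were 0.43 apart. With no replicates, none of these gaps can be set against a spread between samples. The shares of nuclei alone give the same grouping. If counts per nucleus are taken as Poisson, they imply log2 ratios of 0.83 for C1qa, 0.81 for Fcer1g, 0.79 for C1qc, 0.36 for Trem2 and 0.32 for C1qb. C1qa and C1qc change places between the measures, as do C1qb and Trem2.

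**Figure D3:**
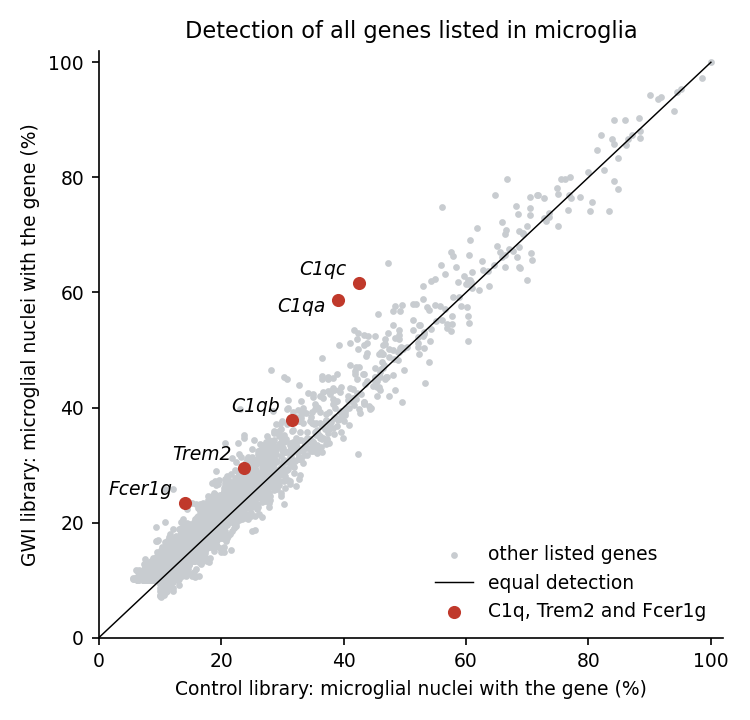
Share of microglial nuclei with each listed gene in the control library (horizontal axis, %) and the GWI library (vertical axis, %), with each point a gene and the line marking equal detection. C1qa and C1qc stand far above the line, by 19.6 and 19.1 points, while C1qb and Trem2 lie at its upper side among many other genes.

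Promoter sequence was read for 4 of the 6 genes, C1qb, C1qc, Fcer1g and Trem2, from RefSeq (GRCm38.p6). It is shown to set the genes of the upper group (C1qc and Fcer1g) beside those of the lower group (C1qb and Trem2). The windows of 300 bases, 250 before the start site and 50 after it, were searched on both strands for GAGGAA, the core bound by PU.1, a transcription factor of the myeloid lineage. The letters occurred once each at C1qb, C1qc and Trem2, beginning 30, 193 and 40 bases before the RefSeq start site, and not at Fcer1g. The RefSeq start of C1qc lies inside the gene as annotated in GENCODE M21, which begins at 136893065. Counted from the GENCODE starts, the distances at C1qb and C1qc would differ, so distances are not compared between genes. Of 32851 promoter windows of that length 28.3% hold the letters. CANNTG, the E-box, occurred in all 4 windows and in 72.3% of all windows, and no E-box overlapped a GAGGAA match. The parts before the start site that no annotated exon of the gene covers are printed 5′ to 3′ on the gene's strand, with GAGGAA or its reverse complement in capitals.
C1qc, chr4:136893066-136893164, minus strand: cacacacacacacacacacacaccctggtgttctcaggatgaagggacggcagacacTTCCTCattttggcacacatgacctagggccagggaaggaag
Fcer1g, chr1:171234366-171234599, minus strand: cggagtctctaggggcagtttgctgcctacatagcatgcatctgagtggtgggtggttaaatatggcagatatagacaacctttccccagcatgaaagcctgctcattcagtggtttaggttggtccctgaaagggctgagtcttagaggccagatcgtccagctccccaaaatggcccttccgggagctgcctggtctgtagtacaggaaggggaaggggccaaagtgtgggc
C1qb, chr4:136886201-136886450, minus strand: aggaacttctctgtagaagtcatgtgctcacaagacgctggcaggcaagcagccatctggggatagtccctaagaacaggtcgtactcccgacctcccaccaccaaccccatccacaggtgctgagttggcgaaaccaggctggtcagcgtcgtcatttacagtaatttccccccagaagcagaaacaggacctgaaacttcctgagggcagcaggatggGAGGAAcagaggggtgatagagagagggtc
Trem2, chr17:48346151-48346400, plus strand: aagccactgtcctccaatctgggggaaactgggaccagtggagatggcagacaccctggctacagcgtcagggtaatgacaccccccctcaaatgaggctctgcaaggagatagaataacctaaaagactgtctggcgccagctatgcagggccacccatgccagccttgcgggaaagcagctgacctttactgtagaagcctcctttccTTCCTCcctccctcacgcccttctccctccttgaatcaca
The match is in the forward orientation at C1qb and in the reverse at C1qc and Trem2, so neither its presence nor its orientation separates the upper from the lower group.

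Set against the whole microglia table, 3 of the 5 listed genes (C1qc, Fcer1g and C1qa) had a log2 fold change of at least 0.5, where 2.96% of all listed genes had one. At a size rule of 0.25 it was 4 of 5, against 15.2% of all, and at 1 it was 0 of 5, against 0.118%. Since the genes were chosen with these values known, nothing is read from the contrast. The 5 listed genes had a median log2 fold change of 0.75 and the table one of -0.06, with 46.8% of all its genes higher in the GWI library. With a detection minimum of 25% in either library, 2 of 4 members reached 0.5, against 2.3% of all. Of the 135 genes listed in microglia and in no other table, as these 5 were, 73.3% were higher in the GWI library and 10.4% reached 0.5, with a median of 0.15.

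Gene length moved with the change in microglia. The listed members are 2.89 to 7.75 kb long, while the median length of the listed genes was 78.6 kb. The 84 listed genes of up to 10 kb had a median log2 fold change of 0.24, the 314 of 10 to 30 kb one of 0.16, the 1097 of 30 to 100 kb one of 0.06, and the 995 longer genes one of -0.12. The 64 genes no longer than Trem2 include the 5 listed members. Of the 64, 18.8% reached 0.5, 3 of them members, and the median was 0.24. Trem2, at 0.23, is one of the genes that set this median, so its nearness to it carries no information. C1qb, at 0.32, lay above it. C1qa, C1qc and Fcer1g lay well above that median, and other short genes there were Mir142hg at 1.07 and Cst3, the cystatin C gene, at 0.97. The part of gene length in these differences was not tested.

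**Figure D4:**
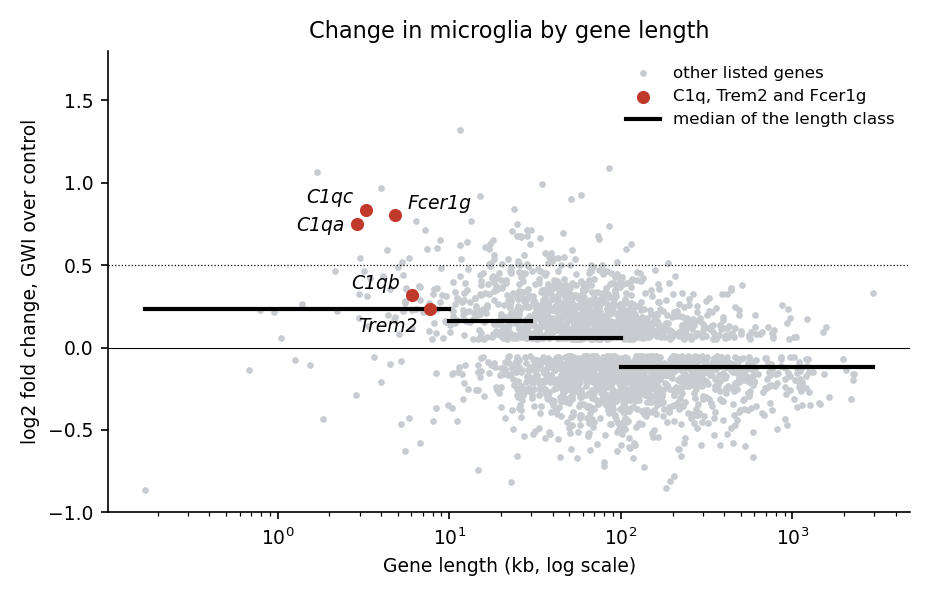
Log2 fold change of each gene listed in microglia (vertical axis, GWI over control) against its length in kb on a log scale, with black bars at the median of each length class and a dotted line at 0.5. The medians step down from 0.24 for genes of up to 10 kb to -0.12 for those over 100 kb. C1qa, C1qc and Fcer1g lie at 0.75 to 0.84, above the bar of the shortest class. Trem2, itself a gene of that class, lies on the bar.

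Markers of cell identity also differed between the libraries. Of the 14 microglial markers that the authors' deposited table lists, 11 had higher values in GWI nuclei. Of all genes listed in microglia 46.8% were higher, and of those listed in microglia alone 73.3%, so nothing is read from this count. The microglial markers had a median log2 fold change of 0.24, with Gpr34 (0.65), Ctss (0.63) and P2ry12 (0.55) at the top. Inpp5d, Dock8 and Sall1 were at -0.07, -0.10 and -0.15. Of 63 markers of neurons, other glia, vessels and erythrocytes 12 were listed and 11 of these were lower, with a median of -0.21. No marker of oligodendrocyte precursors, endothelial cells, pericytes or erythrocytes was listed. The summed shares of these 12 markers were 253.3 in the GWI and 261.4 in the control library, against 823.6 and 730.5 for the 14 microglial markers. Their part in the values of C1q, Fcer1g and Trem2 was not tested.

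Around these genes, the listed receptors of the same pathways were mostly higher in the GWI microglia. For comparison, 46.8% of all genes listed in microglia were higher, and 73.3% of those listed in microglia alone. All 4 listed of 11 Fc receptor genes searched had positive log2 fold changes (median 0.26). Fcgr2b, the inhibitory Fc gamma receptor, had 0.65 and went from 7.8% of control to 13.1% of GWI nuclei. Fcgr1, the high-affinity receptor for immunoglobulin G that signals through FCER1G, had 0.30, and Fcgr3, which also uses FCER1G, had 0.05. Fcrls, an Fc receptor-like gene of microglia, had 0.22. All 5 listed of 15 complement and C1q receptor genes searched were higher, with a median of 0.25. They were Lrp1, an endocytic receptor, at 0.47, the anaphylatoxin receptor gene C3ar1 at 0.32, Itgam, which encodes the alpha chain of complement receptor 3, at 0.25, Lair1, an inhibitory receptor for collagens and C1q, at 0.23, and Calr at 0.08. Siglech, a TYROBP-coupled lectin gene, was at 0.15 and was the one gene listed of 25 receptor genes searched as partners of the adaptors. Fcgr2b, Fcgr1 (8.8% of control and 10.9% of GWI nuclei) and C3ar1 (7.4% and 10.4%) reached the 10% listing rule in the GWI library alone. Their direction in detection was therefore set by that rule, and nothing is read from the receptor counts.

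The rest of the classical complement pathway was hardly listed in microglia. Of 38 symbols searched 5 were listed, 3 of them higher, with a median of 0.14. Of all genes listed in microglia 46.8% were higher, with a median of -0.06. The complement receptor-related gene Cr1l was at 0.14. Of the large Csmd genes, whose products can inhibit complement, Csmd3 was at 0.17, Csmd2 at -0.19 and Csmd1 at -0.30. The protease genes C1ra and C1s1, which act next to C1q, and C3 and C4b were not listed, nor was any of 27 genes of the wider C1q domain family.

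By log2 fold change, genes of signalling below the adaptors were mostly lower or little different. Of 11 listed proximal kinase and adaptor genes 3 were higher, with a median of -0.10. Among all genes listed in microglia 46.8% were higher, with a median of -0.06. Detection did not show the lower values, with summed shares for these 11 genes of 385.7 in the GWI and 380.5 in the control library. Syk, the kinase that binds phosphorylated ITAMs, was at -0.13 and was detected in 18.1% of GWI and 17.0% of control nuclei. The SRC-family kinase gene Lyn was at 0.09, and the TEC-family kinase genes Btk and Tec at -0.10 and -0.61. The adaptor genes Lcp2 and Blnk were at 0.25 and -0.14. Of 22 listed effector genes 4 were higher, with a median of -0.12 and summed shares of 688.8 in the GWI and 689.4 in the control library. Centred on the median of all listed genes, the medians of the proximal and effector lists were -0.04 and -0.06. The effector genes included Rac1, a GTPase of phagocytosis, at 0.19, and the phospholipase gene Plcg1 at -0.30. Among them were also the exchange factor gene Vav2 at -0.34 and the PI3-kinase regulatory gene Pik3r5 at -0.62. Plcg2 was not listed. The proximal kinase and adaptor genes are 41.2 to 227.4 kb long and the Fc receptor genes 11.1 to 17.9 kb, so these roles differ in length as well. The complement and C1q receptor genes, at 5.1 to 83.0 kb, overlap the proximal kinase and adaptor genes in length. The part of length in the contrast was not tested.

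**Figure D5:**
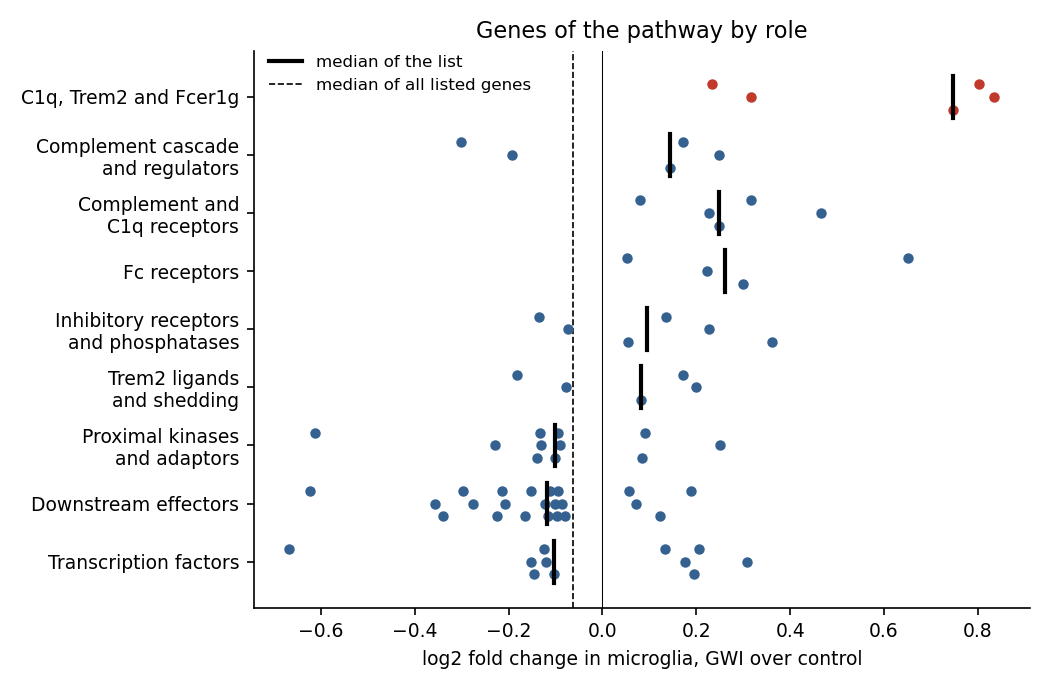
Log2 fold change in microglia (horizontal axis, GWI over control) of each listed gene, grouped by role, with a bar at the median of each list and a dashed line at the median of all listed genes, -0.06. The complement and C1q receptor list and the Fc receptor list have medians of 0.25 and 0.26, the inhibitory receptor and phosphatase list 0.10, and the kinase and effector lists -0.10 and -0.12.

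Brakes on these receptors and genes acting on TREM2 went both ways. Of 6 listed inhibitory receptor and phosphatase genes 4 were higher, with a median of 0.10. Of all genes listed in microglia 46.8% were higher, with a median of -0.06. Cd33, a sialic acid-binding inhibitory receptor, had 0.36 and was detected in 28.2% of GWI and 20.9% of control nuclei, and Inpp5d, the lipid phosphatase SHIP1, was at -0.07. Of genes for TREM2 ligands and shedding 5 were listed, with a median of 0.08, which turned to -0.078 with a detection minimum of 25%. The sheddase genes Adam10 and Adam17 were at 0.20 and 0.17, and App, the amyloid precursor gene, at -0.18. Apoe was not listed in microglia. Of 11 listed transcription factor genes 5 had positive values, near the share of all listed genes, so nothing is read from that count. Their median was -0.10, which turned to 0.028 under the same minimum. The 5 included Maf (0.31), Mef2c (0.21) and Mef2a (0.18), whereas Spi1, which encodes PU.1, was at -0.10 and Tfeb at -0.67.

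Genes most like each member were those listed in microglia alone whose 2 shares of nuclei lay nearest to its own, out of 134 such genes for each. C1qa and C1qc were nearest to each other, 4.47 percentage points apart, and no other gene was within 7 points of either. The next were Laptm5 and Lair1 for C1qa, and Lair1 and Hpgds for C1qc. Near Fcer1g lay Adgre1, the F4/80 antigen gene (22.6% of GWI and 16.2% of control nuclei), and Hpgd. Trem2 was nearest to Gm5086, Fcrls and Mpeg1, and C1qb to Hk2, 8030442B05Rik and Nckap1l. Each likeness rests on 2 values.

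In the other 8 tables the 6 genes have no value, while some microglial markers do. P2ry12 was listed in excitatory neurons, in 11.6% of GWI and 8.9% of control nuclei, and in astrocytes, in 10.2% and 6.9%. Cx3cr1 was listed in the group named Other, in 14.1% and 13.4%, and Inpp5d in endothelial cells, in 23.3% and 11.6%. No marker of the 17 was listed in oligodendrocytes or pericytes.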

How the data were processed

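The libraries are 10x Genomics 3′ single-nucleus libraries with 25000 reads or more per nucleus, per the labels' protocols. Cell Ranger with GRCm38 (mm10) is named in the submitters' processing notes. The sources used here do not state how nuclei were grouped, how doublets and free RNA were treated, how means were scaled or which pseudocount was added.

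The authors deposited log2 fold changes and fractions of nuclei with the gene detected (printed here as percent), per the file headers. The authors' p-values treat nuclei of 1 library as replicates and were not used. No test was run, and a size rule of 0.5 on the log2 fold change describes genes. Some 249 symbols in 10 pathway lists, and 12 marker lists, were used. The members, lists and size rule were chosen with earlier results of these data known. Every listed pathway gene in microglia could be named, and up to 4 per list with the largest change elsewhere. Gene models are GENCODE M21, matched by symbol for 98.3% of the genes in microglia. Mir142hg, Cst3 and the genes named as not listed, and the further tables given for Megf10, Apoe and Clu, were named after their values were seen. Alternatives were centring, detection ratios, other size rules, a detection minimum of 25%, means for medians, and 2 narrower backgrounds. Some genes are not reported here. Summaries were tested on simulated data. Python 3.11.15, pandas 2.3.3, numpy 2.4.6 and matplotlib 3.10.9 were used.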

Additional observations from a re-analysis of the deposited data

How the results depend on the processing

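The 5 listed genes stayed higher in the GWI library, and on the same side of 0.5, when values were centred on the table median and when detection ratios, plain or Poisson, replaced the fold change. The size rule set the number of members past it, which was 3 at 0.5 and 0 at 1, and the share of all genes past it, which was 15.2% at 0.25 and 0.118% at 1. That share was 18.8% among genes no longer than Trem2 and 10.4% among genes listed in microglia alone. Both sets hold the 5 listed genes and were chosen after seeing the data. With a detection minimum of 25%, the median of the TREM2 ligand and shedding list went from 0.08 to -0.078 and that of the transcription factor list from -0.10 to 0.028, since fewer genes remained. The other 21 values of the list medians kept their sign. Subtracting each gene's change in other cell types gave no value, because no other table lists the members. No paired analysis was possible because each group is 1 library. Depth per nucleus and the number of nuclei limit all values to an unknown extent.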

Other observations

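Relatives and partners of these genes were listed outside microglia. C1ql3, a secreted C1q-like synapse organizer, was detected in 40.5% of GWI and 33.6% of control excitatory neuron nuclei, with a log2 fold change of 0.28 in the authors' deposited table. In inhibitory neurons its log2 fold change was -0.42, in oligodendrocyte precursors 0.27 and in the group named Other -0.13. Megf10, a phagocytic receptor that binds C1q, was listed in astrocytes at -0.07, with 32.7% of GWI and 31.5% of control nuclei, in oligodendrocytes at 0.09, in oligodendrocyte precursors at -0.15, and in the group named Other at 0.45, with 12.9% and 10.5%. Apoe, a lipid carrier that TREM2 binds, had positive values in the 7 tables that list it, from 0.05 in excitatory neurons to 0.38 in oligodendrocytes. It was at 0.17 in astrocytes, where it was detected in 50.8% of GWI and 43.6% of control nuclei. Clu, which encodes the lipid carrier and complement inhibitor clusterin, was at 0.45 in astrocytes, with 42.8% of GWI and 32.8% of control nuclei. It was at 0.41 in inhibitory neurons, at 0.14 to 0.29 in excitatory neurons, the group named Other and endothelial cells, and at -0.18 in oligodendrocyte precursors. In endothelial cells Clu was detected in 18.4% of GWI and 18.9% of control nuclei, against the direction of its fold change.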
